A study of Mus musculus with 24 samples.

Results

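The DNA replication machinery was followed here as 44 genes that encode the proteins of origin licensing, helicase activation, the replication fork and deoxynucleotide supply. The genes were chosen by function and looked up by gene symbol, and all 44 were found among the 14427 genes of the count table. Expression was measured by RNA-seq in primary astrocytes from the cortex of C57BL/6 mice at postnatal day 1. The astrocytes carried a floxed and a null allele of Trp53, the gene that encodes p53. There was 1 male and 1 female culture, each pooled from several pups. From each culture came 4 lines, the p53 KO and one line for each of the p53 mutants Y217C, Y202C and R172H. Each line had 3 libraries, 24 in all over 8 lines. The labels give passages 10 to 15 for every line.

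All lines had received Cre recombinase and puromycin selection, which removed the floxed allele. The mutant lines had in addition been transduced with a retrovirus that expressed the mutant p53 together with eGFP and had been sorted for eGFP, which the p53 KO lines had not. A mutant line therefore differed from its p53 KO line in the transduction and the sort as well as in the mutant protein. Sex and culture cannot be told apart with 1 culture per sex. The study gives replicates of its in vitro work as separate thaws and platings, so p-values below measure the spread within a line, which may be partly technical.

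DNA replication is prepared in G1, when the origin recognition complex (ORC), Cdc6 and Cdt1 load rings of the MCM helicase onto origins, and geminin later binds Cdt1 to prevent a second loading. At the start of S phase, Cdc45 and the GINS complex join the helicase, polymerase alpha-primase lays primers, and polymerases delta and epsilon extend them on the PCNA clamp. Many of these genes are transcribed at the G1/S transition under E2F transcription factors, so their messenger RNA is known as a mark of cycling cells.

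The check of the labels came from Trp53 itself. It stood at 46.5 to 53.7 CPM, counts scaled to a common library size, in the 6 p53 KO libraries and between 573 and 3870 CPM in the mutant libraries. The lowest mutant level was in female p53 Y202C, with 573 to 605 CPM, and the highest in female p53 Y217C, with 3546 to 3870 CPM. In males the order was different, with 1188 to 1247 CPM in p53 Y217C, 2196 to 2349 CPM in p53 R172H and 2259 to 2444 CPM in p53 Y202C. Total counts per library ran from 52787288 to 136503809. Of 10 astrocyte markers all were in the count table, but the defining markers Gfap and Aqp4 were near 0 in most lines. The mean of Gfap was at most 0.257 CPM in all lines except male p53 Y217C, with 6.93 CPM, and that of Aqp4 at most 0.113 CPM except in male p53 Y202C and p53 Y217C, with 1.77 and 8.06 CPM. Sox9 ran from 70.9 to 186 CPM and Gja1 from 77.3 to 238 CPM over all libraries, while the fibroblast gene Col1a1 ran from 3067 to 24020 CPM.

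Summed over the 44 genes, expression was lowest in male p53 Y202C. The sum in male p53 KO was 3017, 2723 and 2642 CPM in the 3 libraries, against 1616, 1582 and 1582 CPM in male p53 Y202C, which is 43.0% lower by the means. In females the sum was 3115, 3079 and 3001 CPM in p53 KO, 1914, 2073 and 2197 CPM in p53 R172H and 2121, 2169 and 2052 CPM in p53 Y202C. These female mutant lines lay 32.8% and 31.0% below their p53 KO, and neither overlapped with it. The remaining 3 mutant lines were closer to their p53 KO. Female p53 Y217C held 2584, 2867 and 2831 CPM, male p53 R172H held 2868, 2502 and 2666 CPM, and male p53 Y217C held 2391, 2837 and 2462 CPM, and both male lines overlapped with male p53 KO. In bulk RNA, fewer cells in S phase and less RNA of these genes per cell cannot be told apart. The study reports that male p53 Y202C, male p53 Y217C and female p53 R172H cells grew more than p53 KO cells in its plate assay. For female p53 Y202C and male p53 R172H it reports no increase, and for female p53 Y217C slower growth. How these levels relate to growth was not tested.

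**Figure D1:**
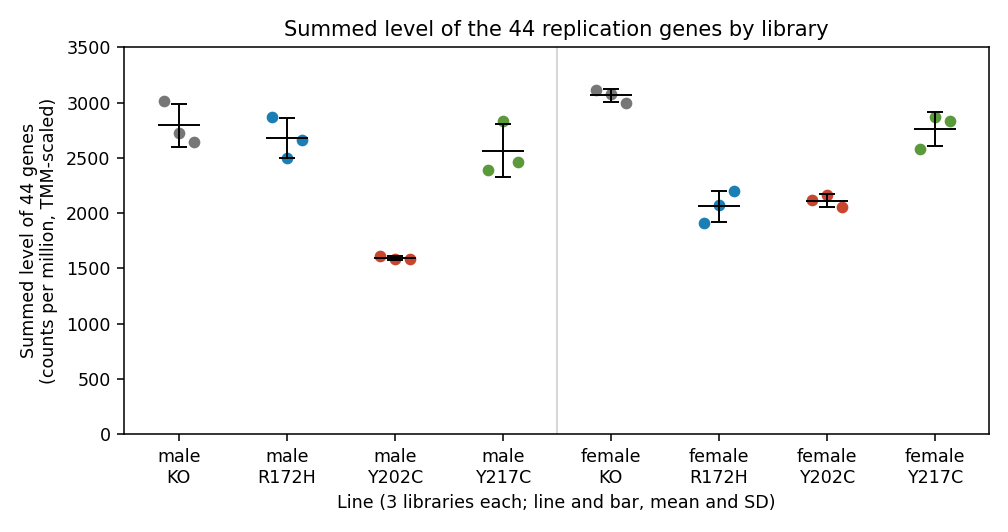
Summed level of the 44 replication genes in CPM (vertical axis) in each library (dots), with the mean and SD of the 3 libraries of each line (line and bar). Male p53 Y202C lies at 1582 to 1616 CPM, and female p53 R172H and female p53 Y202C lie at 1914 to 2197 CPM, below their p53 KO lines.

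In several lines, but not in all, the 44 genes moved together between libraries of the same line. The first replicate of male p53 KO had the highest of the 3 values for 41 of the 44 genes, whereas it was highest for 37.8% of all genes. The second replicate of male p53 Y217C was highest for 40 of the 44, against 32.4% of all genes, and the second replicate of male p53 R172H was lowest for 38 of the 44. In females the first replicates of p53 R172H and of p53 Y217C were each lowest for 37 of the 44. The share of all genes lowest in a library was not computed. The libraries named as lowest were each highest for 1 of the 44, against 32.8%, 37.6% and 38.9% of all genes. Some counts of the 44 genes below are also given with 1 library left out, as single values or as a range.

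Each mutant line was compared with the p53 KO line of its own culture by edgeR's quasi-likelihood test over all 14427 genes. A gene was called at a Benjamini-Hochberg adjusted p of 0.05 or less, and fold changes are given on the log2 scale with their standard error (SE). The 3 comparisons within a culture share its p53 KO libraries.

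In male p53 Y202C, nearly the whole set fell: 37 of the 44 genes were lower and 5 were higher, where 73.0% of all genes tested were called, 35.4% lower and 37.6% higher. The median log2 fold change of the 44 was -0.93, against 0.01 over all genes. The lower count was 37 whichever of the 6 libraries was left out, but the higher count was 3 instead of 5 without the second or the third male p53 KO library, or without the first or second p53 Y202C one. Rrm2 (chromosome 12, 24708241 to 24714146, GRCm38), the small subunit of ribonucleotide reductase, which makes deoxynucleotides, fell most, by 2.83 on the log2 scale (SE 0.12, 7.13-fold lower, adjusted p = 4.9e-16). Cdc6 fell by 2.44 (SE 0.12, adjusted p = 4.4e-15) and Tk1, the thymidine kinase of dividing cells, had -2.16 (SE 0.12, adjusted p = 3.6e-14). The clearest exception was Orc3, an ORC subunit, which rose by 0.83 (SE 0.06, adjusted p = 1.1e-11), followed by the subunits Orc4 at 0.33 (SE 0.08, adjusted p = 0.0012) and Orc5 at 0.29 (SE 0.06, adjusted p = 0.00021). The other rises were Mcm2 and Cdt1, both small and described below. Orc6 and Gins4 were not called, with log2 fold changes of -0.01 and -0.12.

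In female p53 R172H, 35 of the 44 genes were lower and 1 was higher, where 69.7% of all genes were called, 35.3% lower and 34.4% higher. The median was -0.58, against -0.01 over all genes. The largest falls were Rrm2 at -1.44 (SE 0.11, adjusted p = 6.2e-11), the GINS subunit Gins3 at -1.25 (SE 0.11, adjusted p = 2.1e-10) and Orc6 at -1.14 (SE 0.07, adjusted p = 4.0e-13). Rpa3, the smallest subunit of the single-strand binding protein RPA, was the only member that rose in this comparison, by 0.40 (SE 0.08, adjusted p = 0.00021).

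In female p53 Y202C, 34 of the 44 genes were lower and 3 were higher, where 68.6% of all genes were called and 34.3% were lower. The median was -0.48. Orc1 led at -1.47 (SE 0.14, adjusted p = 2.6e-09), with Orc6 at -1.43 (SE 0.07, adjusted p = 1.4e-14) and Pole, the catalytic subunit of polymerase epsilon, at -1.21 (SE 0.10, adjusted p = 1.4e-10). The 3 rises were Orc5 at 0.52 (SE 0.06, adjusted p = 1.3e-07), Rpa3 at 0.45 (SE 0.09, adjusted p = 6.1e-05) and Tyms, thymidylate synthase, at 0.23 (SE 0.07, adjusted p = 0.0084).

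The other 3 mutant lines showed members on both sides. In female p53 Y217C, 17 of the 44 genes were lower and 8 were higher, where 56.7% of all genes were called, 28.7% lower and 28.0% higher, and the median was -0.06. Without the first replicate of this line the lower count was 10 instead of 17. The largest falls were Orc2 at -0.90 (SE 0.09, adjusted p = 1.6e-08), Gins3 at -0.77 (SE 0.10, adjusted p = 1.1e-06) and Orc6 at -0.74 (SE 0.07, adjusted p = 2.9e-09). The largest rises were Gins2 at 0.84 (SE 0.08, adjusted p = 2.4e-09), Rpa3 at 0.62 (SE 0.08, adjusted p = 1.2e-06) and Cdt1 at 0.60 (SE 0.07, adjusted p = 7.5e-08).

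In male p53 Y217C, 15 of the 44 genes were lower and 9 were higher, where 70.5% of all genes were called, 35.6% lower and 34.9% higher. The median was -0.05. Among those that fell were Orc1 at -0.87 (SE 0.14, adjusted p = 4.8e-06), Pold1, the catalytic subunit of polymerase delta, at -0.78 (SE 0.10, adjusted p = 5.7e-07) and Cdc6 at -0.60 (SE 0.11, adjusted p = 2.6e-05). Rfc3, a subunit of the loader of PCNA, rose by 0.61 (SE 0.07, adjusted p = 2.6e-08), and Pole2, the second subunit of polymerase epsilon, by 0.54 (SE 0.10, adjusted p = 2.9e-05). Pola1, the catalytic subunit of polymerase alpha, had a log2 fold change of 0.28 (SE 0.10, adjusted p = 0.012) that was no longer called without the second replicate of this line (adjusted p = 0.17) or the third of male p53 KO (adjusted p = 0.052). Without either of these libraries the higher count was 4 instead of 9. The lower count ran from 12 to 19 when 1 library was left out.

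Male p53 R172H had the fewest members called, with 12 of the 44 genes lower and 5 higher, where 40.7% of all genes were called, 20.5% lower and 20.2% higher. The median was -0.09. Orc2 had -0.50 (SE 0.09, adjusted p = 0.00011) and Rpa1, the large RPA subunit, -0.37 (SE 0.06, adjusted p = 1.0e-05). Rrm2 at -0.38 (SE 0.11, adjusted p = 0.0080) and Pold1 at 0.31 (SE 0.10, adjusted p = 0.019) each lost their call when 1 library was left out. For Rrm2 these were the second replicate of the line (adjusted p = 0.066) or the first of male p53 KO (adjusted p = 0.072), and for Pold1 the first of the line (adjusted p = 0.12) or the third of male p53 KO (adjusted p = 0.069). Cdt1 rose by 0.28 (SE 0.07, adjusted p = 0.0016) and Pola2 by 0.25 (SE 0.06, adjusted p = 0.0032). Without the second replicate of the line the lower count was 5 instead of 12, without the first replicate of male p53 KO it was 7, and without the first replicate of the line the higher count was 3 instead of 5.

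**Figure D2:**
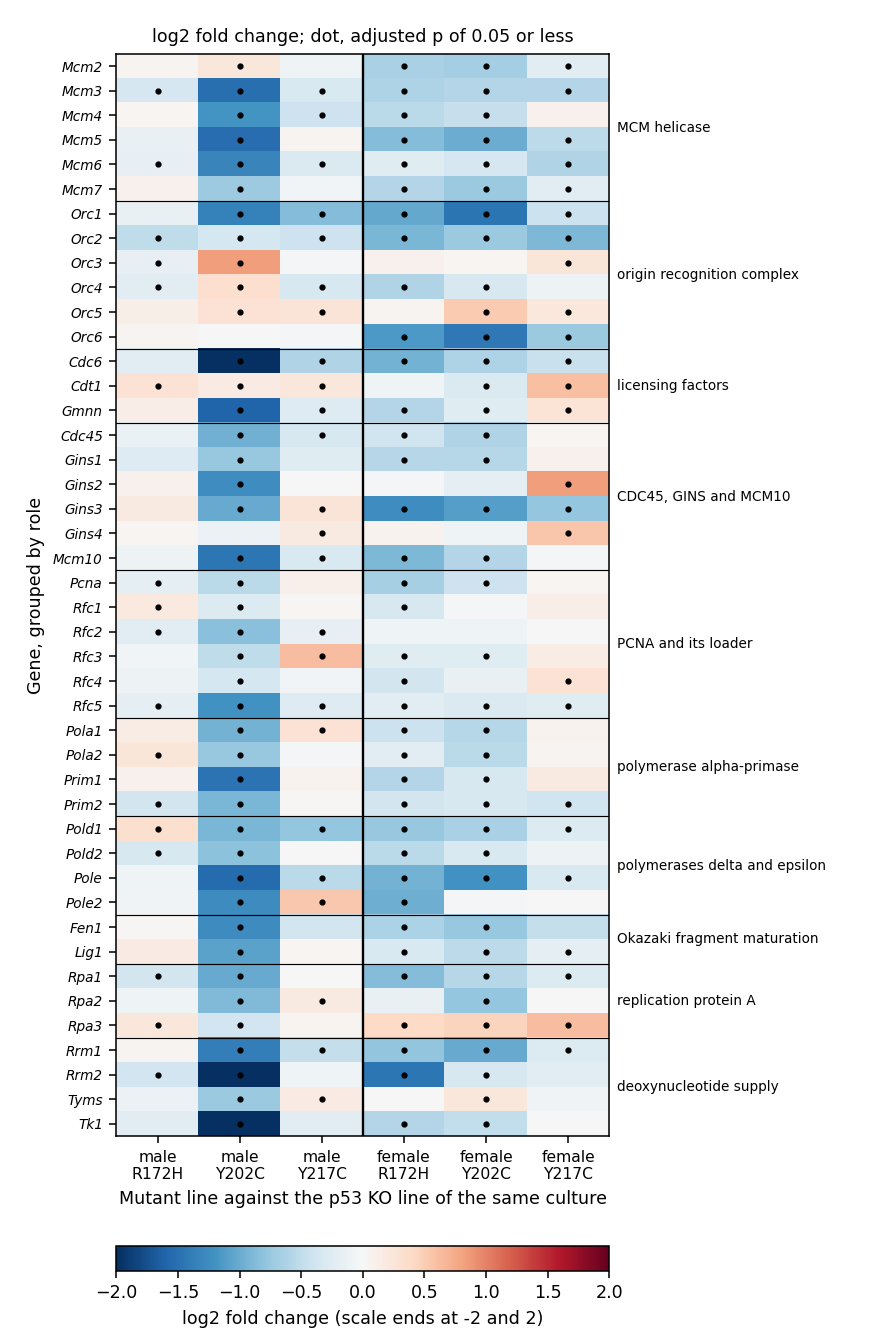
The log2 fold change of each of the 44 genes (rows, grouped by role) in each mutant line against the p53 KO line of its culture (columns), with a dot where the adjusted p was 0.05 or less. The color scale ends at -2 and 2, which Rrm2, Cdc6 and Tk1 in male p53 Y202C exceed. Male p53 Y202C has 37 genes lower, female p53 R172H 35 and female p53 Y202C 34.

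Over the 6 comparisons, 25 of the 44 genes were lower in at least 1 and higher in none, 2 were higher in at least 1 and lower in none, and 17 were lower in some and higher in others. Over all 14427 genes the shares were 23.3%, 25.5% and 48.7%. The 4 members Mcm3, Mcm6, Orc2 and Rfc5 were lower in all 6, as were 2.56% of all genes. The 2 that were only called higher were Orc5, in 4 comparisons, and Gins4, in 2. Male p53 Y202C and female p53 R172H, which share no library, had 32 lower genes in common, 86.5% of the 37 and 91.4% of the 35. Since most members were lower in each, much of this overlap follows from the counts themselves. Over all genes, 46.6% of those lower in one of these lines were also lower in the other, whichever was taken first.

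The MCM helicase is a ring of 6 related subunits, which are needed together to unwind DNA. All 6 were lower in female p53 R172H, with log2 fold changes from -0.87 to -0.25, and in female p53 Y202C, from -0.996 to -0.34. Mcm5 showed the largest MCM change in both. It was 190, 192 and 185 CPM in female p53 KO, 94.0, 96.1 and 120 CPM in p53 R172H, 90.8, 103 and 89.8 CPM in p53 Y202C and 120, 139 and 135 CPM in p53 Y217C. The 3 female mutant lines all lay below female p53 KO with no overlap, and Mcm5 was called in each.

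In male p53 Y202C the ring did not move as a whole. Mcm3 to Mcm7 fell, with log2 fold changes of -1.51 for Mcm3, -1.19 for Mcm4, -1.53 for Mcm5, -1.32 for Mcm6 and -0.72 for Mcm7. Mcm5 stood at 149, 126 and 120 CPM in male p53 KO and at 50.2, 45.7 and 40.8 CPM in male p53 Y202C. Mcm2, by contrast, was 183, 160 and 155 CPM in male p53 KO and 203, 201 and 178 CPM in male p53 Y202C. The 2 lines overlapped for Mcm2. Its log2 fold change of 0.23 (SE 0.09, adjusted p = 0.023) was no longer called without the second or the third replicate of male p53 KO (adjusted p = 0.079 and 0.11) or the first or second of male p53 Y202C (adjusted p = 0.085 and 0.073). In female p53 Y202C, Mcm2 fell by 0.68, from 194, 187 and 186 CPM to 115, 129 and 111 CPM. The ratio of Mcm2 to the geometric mean of Mcm3 to Mcm7 was 3.23 ± 0.19 (SD, n = 3) in male p53 Y202C and had means between 1.13 and 1.32 in the other 7 lines, where the single libraries ran from 1.08 to 1.34. Male p53 Y202C was the only line in which this ratio departed from the rest.

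Promoter sequences of 4 members are shown because Mcm2 and Mcm5 parted in male p53 Y202C while Rrm2 fell most, and because MCM genes are textbook E2F targets. The sequences are RefSeq promoter windows of the mouse build GRCm38.p6, given 5′ to 3′ on the strand of the gene ending before the first base that RefSeq or GENCODE gives as transcribed, whichever comes first, with 8-letter words typical of E2F sites in capitals. The words searched, on both strands, were TTTCCCGC, TTTGGCGC, TTTCGCGC and TTTGCCGC, and words on opposite strands can overlap, as they do in the 12-letter runs of Mcm5 and Mcm6.
Mcm5, plus strand, chr8:75109259-75109467: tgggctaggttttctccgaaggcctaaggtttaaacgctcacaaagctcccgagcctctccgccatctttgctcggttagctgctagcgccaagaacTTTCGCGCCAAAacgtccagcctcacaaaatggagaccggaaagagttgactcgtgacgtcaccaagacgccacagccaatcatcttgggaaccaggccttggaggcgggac
Mcm6, minus strand, chr1:128359706-128359955: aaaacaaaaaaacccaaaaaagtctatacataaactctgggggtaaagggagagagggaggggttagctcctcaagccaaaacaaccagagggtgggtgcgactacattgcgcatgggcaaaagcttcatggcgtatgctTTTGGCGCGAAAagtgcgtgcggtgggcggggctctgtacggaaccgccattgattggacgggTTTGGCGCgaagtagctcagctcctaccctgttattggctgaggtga
Mcm2, minus strand, chr6:88898781-88899030: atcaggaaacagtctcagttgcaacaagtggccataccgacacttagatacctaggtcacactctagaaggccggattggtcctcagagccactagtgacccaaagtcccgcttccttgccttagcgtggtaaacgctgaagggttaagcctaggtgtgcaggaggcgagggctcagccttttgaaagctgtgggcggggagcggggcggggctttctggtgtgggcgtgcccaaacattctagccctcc
Rrm2, plus strand, chr12:24708004-24708240: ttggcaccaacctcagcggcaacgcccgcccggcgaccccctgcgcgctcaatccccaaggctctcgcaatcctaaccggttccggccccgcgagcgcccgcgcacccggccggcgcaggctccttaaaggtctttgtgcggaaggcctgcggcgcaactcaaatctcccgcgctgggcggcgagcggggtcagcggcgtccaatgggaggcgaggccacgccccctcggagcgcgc
Mcm5 and Mcm6 hold the words and Mcm2 and Rrm2 hold none in these windows. Windows of 300 bases, from 250 before to 50 after the start, were found for 36 of the 44 genes. At least 1 of the words stood in the windows of 14 of the 36 genes (38.9%), against 4.6% of the 10290 genes of the count table with a window and 2.6% of all 27025 genes with one. The letters CCAAT, the box bound by NF-Y, were found for 63.9% of the 36 and 43.1% of the 10290. TTTGAA, a core of the CHR element of cell cycle genes, was found for 13.9% and 14.2%. The 14 members with the E2F words and the 22 without had median log2 fold changes of -0.61 and -0.58 in female p53 R172H and of -1.04 and -0.79 in male p53 Y202C. The medians were -0.58 and -0.46 in female p53 Y202C and -0.24 and -0.06 in female p53 Y217C. In male p53 R172H they were -0.07 and -0.10, and in male p53 Y217C -0.002 and -0.04. A match is a description of these letters and not a measured site.

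ORC marks the origins, and its subunits split into those that fell and those that did not. Orc1, the subunit that is itself regulated through the cell cycle, was 10.3, 10.4 and 10.6 CPM in female p53 KO. It was 4.65, 5.18 and 5.52 CPM in female p53 R172H, 4.46, 3.11 and 3.79 CPM in female p53 Y202C and 6.58, 8.55 and 8.04 CPM in female p53 Y217C, without overlap. In males Orc1 was 10.2, 8.03 and 7.56 CPM in p53 KO, 7.86, 7.31 and 7.96 CPM in p53 R172H, 3.34, 2.98 and 3.72 CPM in p53 Y202C and 4.37, 5.56 and 4.12 CPM in p53 Y217C. It was called lower in every mutant line except male p53 R172H, whose libraries overlapped with male p53 KO. Orc3 was 36.1, 38.2 and 38.6 CPM in male p53 KO and 62.0, 65.4 and 74.4 CPM in male p53 Y202C, and it stayed between 32.9 and 46.4 CPM in the other 18 libraries. The ratio of Orc1 to the geometric mean of Orc2 to Orc5 fell to 0.097 ± 0.0072 (SD, n = 3) in male p53 Y202C, from 0.303 ± 0.041 in male p53 KO, without overlap and with no test.

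Licensing depends on Cdc6 and Cdt1 and on the Cdt1 inhibitor geminin, encoded by Gmnn. Cdc6 was 27.9, 23.2 and 21.6 CPM in male p53 KO and 4.72, 4.36 and 4.23 CPM in male p53 Y202C, the lowest of any line. In females it was 23.9, 25.1 and 22.3 CPM in p53 KO, 11.1, 13.4 and 12.3 CPM in p53 R172H, 14.8, 15.9 and 15.6 CPM in p53 Y202C and 14.9, 17.96 and 19.5 CPM in p53 Y217C. Cdc6 was lower in 5 comparisons, and male p53 R172H, at 22.1, 19.3 and 21.2 CPM, was the line in which it was not called.

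Cdt1 behaved differently and was called higher in 4 of the 6 comparisons. It was 78.5, 71.7 and 71.7 CPM in male p53 KO, 95.9, 87.6 and 86.5 CPM in p53 R172H, 88.5, 81.1 and 77.6 CPM in p53 Y202C and 86.5, 90.3 and 82.7 CPM in p53 Y217C. The p53 Y202C libraries overlapped with p53 KO, and that log2 fold change of 0.16 (SE 0.07, adjusted p = 0.039) was lost without the second or the third replicate of male p53 KO (adjusted p = 0.12 for both) or the first or second of the line (adjusted p = 0.21 and 0.054). In females Cdt1 was 68.1, 64.5 and 65.8 CPM in p53 KO and 98.1, 99.5 and 102 CPM in p53 Y217C, but 51.6, 60.4 and 49.7 CPM in p53 Y202C.

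Gmnn fell by 1.61 in male p53 Y202C, from 16.9, 15.7 and 14.7 CPM to 4.47, 5.19 and 5.90 CPM. It fell by 0.58 in female p53 R172H, by 0.25 in female p53 Y202C and by 0.26 in male p53 Y217C, and it rose by 0.27 in female p53 Y217C. The ratio of Cdt1 to Gmnn was 16.2 ± 3.36 (SD, n = 3) in male p53 Y202C, with libraries at 19.8, 15.6 and 13.1. In the other 7 lines the libraries ran from 3.96 to 7.34.

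Helicase activation draws on Cdc45, the GINS subunits Gins1 to Gins4 and Mcm10. Of these 6, 5 fell in male p53 Y202C, from -0.75 for Gins1 to -1.45 for Mcm10. Cdc45 was 43.7, 37.6 and 36.7 CPM in male p53 KO and 20.8, 20.8 and 18.8 CPM in male p53 Y202C. In females it was 36.7 to 38.7 CPM in p53 KO, 25.3 to 30.9 CPM in p53 R172H, 22.6 to 27.2 CPM in p53 Y202C and 36.0 to 41.0 CPM in p53 Y217C, so only the first 2 mutant lines stood apart from p53 KO. Gins2 rose in female p53 Y217C from 24, 23.4 and 25.3 CPM to 42.6, 43.96 and 43.8 CPM. It shares 70.7% of its transcript with the overlapping gene Gse1, so its reads could not be assigned with certainty.

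PCNA, the sliding clamp, fell in the same 3 lines in which most members fell, and in male p53 R172H. It was 118, 106 and 102 CPM in male p53 KO and 74.0, 76.7 and 73.8 CPM in male p53 Y202C, a log2 fold change of -0.54. In females Pcna fell from 115, 117 and 114 CPM to 67.4, 69.7 and 80.3 CPM in p53 R172H and to 84.3, 89.5 and 84.3 CPM in p53 Y202C, and it was 111, 121 and 123 CPM in p53 Y217C. The RFC subunits that load it all fell in male p53 Y202C, from -0.27 for Rfc1 to -1.22 for Rfc5. Rfc3 was the exception in male p53 Y217C, at 36.1, 39.9 and 38.2 CPM against 27.4, 23.8 and 23.5 CPM in p53 KO. Without strand information, reads of a member cannot be told apart from those of a gene on the opposite strand that it overlaps, as Rfc5 does with Wsb2. The same limit holds for Mcm7, Orc2, Orc4, Orc6, Cdc45, Gins2, Rfc2, Rfc4, Fen1, Lig1 and Tk1.

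The 8 members that encode subunits of polymerase alpha-primase, delta and epsilon fell in male p53 Y202C, from -0.76 for Pola2 to -1.53 for Pole, and all 8 fell in female p53 R172H. Pold4, a delta subunit that is not among the 44, rose in the latter line and is given with the other fork factors below. Pola1 was 46.2, 41.7 and 40.6 CPM in male p53 KO, 21.6, 20.3 and 24.9 CPM in p53 Y202C and 49.1, 60.3 and 46.8 CPM in p53 Y217C. Pole2 was 10.7, 9.87 and 9.20 CPM in male p53 KO, 4.10, 4.14 and 4.10 CPM in p53 Y202C and 13.8, 15.5 and 13.9 CPM in p53 Y217C, with no overlap between these lines. In female p53 Y202C it was 12.3, 9.56 and 10.9 CPM and overlapped with female p53 KO, at 10.7, 12.1 and 10.6 CPM, although its partner Pole fell in that line.

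Okazaki fragments are joined by the nuclease Fen1 and the ligase Lig1. Fen1 was the least abundant member, with 0.881 to 3.11 CPM over all libraries, and an antisense gene, Gm10143, covers 80.5% of its transcript at 100% identity, so its counts are uncertain. It was 2.70, 2.41 and 2.34 CPM in male p53 KO and 0.881, 1.11 and 1.13 CPM in male p53 Y202C. Lig1 fell by 1.07 in that line, by 0.30 in female p53 R172H and by 0.52 in female p53 Y202C.

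RPA coats single-stranded DNA as a trimer, and its subunits did not move alike. Rpa2 was 26.3, 22.6 and 24.04 CPM in male p53 KO, 12.6, 13.5 and 13.4 CPM in p53 Y202C and 25.1, 31.3 and 26.3 CPM in p53 Y217C. In females Rpa2 was 24.7, 23.8 and 25.4 CPM in p53 KO and 15.0, 14.6 and 13.6 CPM in p53 Y202C. Rpa3 rose in 4 comparisons and fell in male p53 Y202C, where it was 6.69, 6.57 and 7.21 CPM against 9.49, 7.87 and 9.26 CPM in p53 KO.

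Deoxynucleotides are supplied by ribonucleotide reductase, whose subunits are Rrm1 and Rrm2, and by Tyms and Tk1 for thymidine nucleotides. Rrm2 was 144, 119 and 116 CPM in male p53 KO and 19.8, 16.4 and 16.9 CPM in male p53 Y202C. In females it was 126, 128 and 118 CPM in p53 KO, 40.4, 47.1 and 49.7 CPM in p53 R172H, 102, 99.1 and 96.2 CPM in p53 Y202C and 94.0, 116 and 108 CPM in p53 Y217C. None of these female mutant libraries overlapped with p53 KO, but the p53 Y217C change of -0.23 was not called. The ratio of Rrm2 to Rrm1 was 0.237 ± 0.016 (SD, n = 3) in male p53 Y202C against 0.652 ± 0.025 in male p53 KO, and 0.310 ± 0.015 in female p53 R172H against 0.487 ± 0.0079 in female p53 KO. In female p53 Y202C the ratio was 0.785 ± 0.026, above p53 KO. Tyms was 50.8, 47.2 and 44.3 CPM in male p53 KO, 27.4, 30.1 and 27.5 CPM in p53 Y202C and 52.0, 54.7 and 53.3 CPM in p53 Y217C, and in female p53 Y202C it was 46.9, 50.2 and 45.8 CPM against 41.1, 40.1 and 40.5 CPM in p53 KO.

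**Figure D3:**
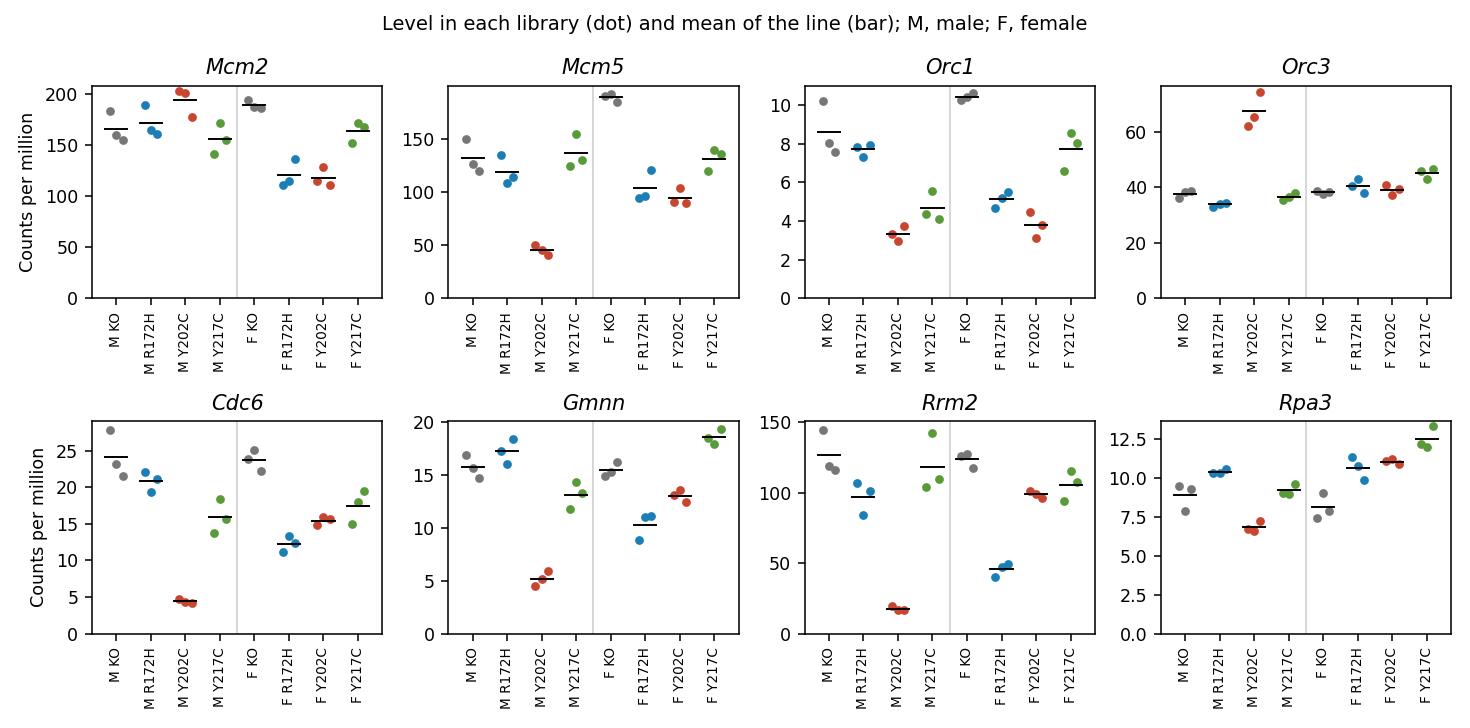
Level in CPM (vertical axes, from 0) of 8 members in each library (dots), with the mean of each line (bars), in male (M) and female (F) lines. Cdc6, Gmnn and Rrm2 are lowest in male p53 Y202C, where Mcm2 is at 178 to 203 CPM and Orc3 at 62.0 to 74.4 CPM.

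Whether a mutation moved these genes differently in the male and the female culture was tested by the interaction, the male log2 fold change minus the female one. Trp53 itself had an interaction of 1.915 for p53 Y202C and of -1.665 for p53 Y217C, both called, and of 0.17 for p53 R172H, not called. With p53 Y202C and p53 Y217C, culture and level of Trp53 therefore cannot be told apart. For p53 R172H, 28 of the 44 genes had a positive interaction and 1 a negative one, where 58.0% of all genes were called, 29.7% positive and 28.3% negative. The largest were Gins3 at 1.42 (SE 0.15, adjusted p = 1.6e-08), Orc6 at 1.199 (SE 0.10, adjusted p = 1.8e-10) and Pold1 at 1.07 (SE 0.15, adjusted p = 1.2e-06), and the 1 negative gene was Orc3 at -0.24. The median of the 44 was 0.46, against 0.02 over all genes.

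For p53 Y202C, 28 genes had a negative interaction and 6 a positive one, where 68.0% of all genes were called, 33.5% negative and 34.5% positive. The negative count ran from 22 to 30 when 1 library was left out. Rrm2 had -2.51 (SE 0.16, adjusted p = 1.5e-12), Cdc6 -1.82 (SE 0.16, adjusted p = 3.4e-10) and Tk1 -1.67 (SE 0.16, adjusted p = 1.7e-09). Mcm2, chosen after its values were seen, had 0.91 (SE 0.12, adjusted p = 6.2e-07), the opposite sign to Mcm3 to Mcm6. The 6 positive genes were Mcm2, Orc2, Orc3, Orc4, Orc6 and Cdt1, all of them in licensing.

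For p53 Y217C, 9 genes had a positive and 10 a negative interaction, where 54.8% of all genes were called, 27.5% positive and 27.4% negative. Both directions together ran from 19 to 24 when 1 library was left out. Gins3 had 1.03 (SE 0.15, adjusted p = 2.3e-06), Gins2 -0.84 (SE 0.11, adjusted p = 4.7e-07) and Orc6 0.70 (SE 0.10, adjusted p = 1.4e-06).

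**Figure D4:**
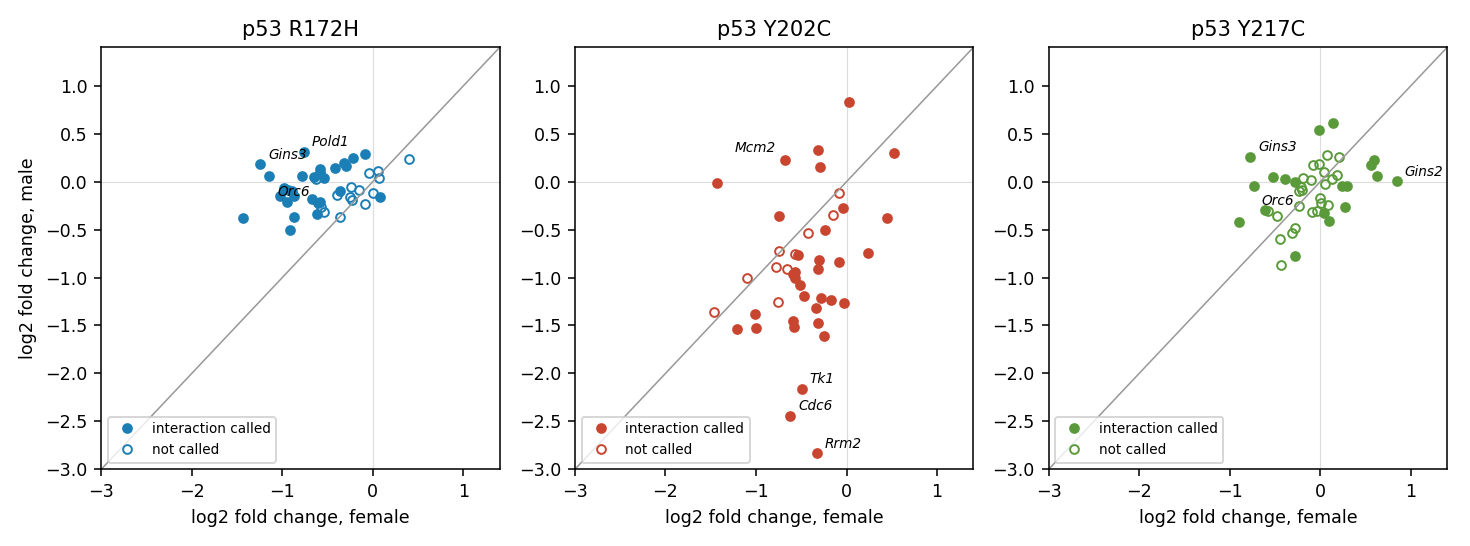
Log2 fold change against p53 KO in the male line (vertical) and the female line (horizontal) for the 44 genes and each mutation, with filled dots where the interaction was called and the line of equal change in gray. For p53 R172H 28 genes lie above the line with a call, and for p53 Y202C 28 lie below it.

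The p53 KO lines themselves were compared as the base of these contrasts. Between male and female p53 KO, 7 of the 44 genes were lower in the male line and 4 higher, where 31.1% of all genes were called, 13.8% lower and 17.2% higher. Gins3 was 7.89, 7.39 and 6.99 CPM in male p53 KO and 15.6, 15.9 and 16.1 CPM in female p53 KO, a log2 difference of -1.10 (SE 0.10, adjusted p = 1.2e-08). Orc6 was 41.6, 37.7 and 37.7 CPM against 77.4, 77.5 and 74.4 CPM, a difference of -0.97 (SE 0.07, adjusted p = 5.4e-11). The highest in males were Rfc2 at 0.33 (SE 0.06, adjusted p = 0.00035) and Gins2 at 0.29 (SE 0.08, adjusted p = 0.0048). The higher count was 2 instead of 4 without the second or the third female p53 KO library, or without the first or second male one. The lower count ran from 6 to 10 when 1 library was left out.

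Orc6 and Gins3 lie on chromosome 8 at 85299632 to 85308278 and 95633453 to 95645060 (GRCm38), and their neighbors moved with them. Among 74 genes tested within 2.5 Mb of Orc6, the median log2 difference between male and female p53 KO was -0.94, and among 45 around Gins3 it was -0.80. The same neighbors had medians of -0.63, -0.82 and -0.61 around Orc6 and of -0.52, -0.86 and -0.54 around Gins3 in female p53 R172H, p53 Y202C and p53 Y217C against female p53 KO. In all 3 female mutant lines Orc6 stood between 27.5 and 46.8 CPM and in all male lines between 34.4 and 43.0 CPM, so that female p53 KO was the line that stood apart. The part of the chromosomal region in these values was not tested.

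The neighbors of other members also moved in single lines. Around Rrm2, 14 neighbors had a median of -1.02 in male p53 Y202C and of 1.00 in female p53 Y202C, and Rrm2 lay 1.81 and 1.33 below them on the log2 scale. Around Mcm3, 9 neighbors had a median of -0.87 in male p53 Y202C, and around Orc3, 23 had 0.34. In female p53 Y217C the neighbors of Gins2, Rpa3 and Cdt1, its 3 largest rises, had medians of 0.46, 0.45 and 0.44, and those of Orc2, its largest fall, -0.43. By contrast, the 107 neighbors of Cdc6 and the 97 of Tk1 had medians of -0.40 and -0.20 in male p53 Y202C, where Cdc6 and Tk1 had -2.44 and -2.16. Over the set, 37 of the 44 genes lay below the median of their neighbors in male p53 Y202C, 41 in female p53 R172H and 39 in female p53 Y202C, with median distances of -1.03, -0.56 and -0.53. In male p53 R172H, male p53 Y217C and female p53 Y217C it was 29, 29 and 28, with median distances of -0.05, -0.14 and -0.11. Since most members fell in the lines named first, those counts follow in part from the falls themselves. The share over all genes was not computed, and the part of the regions was not tested.

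**Figure D5:**
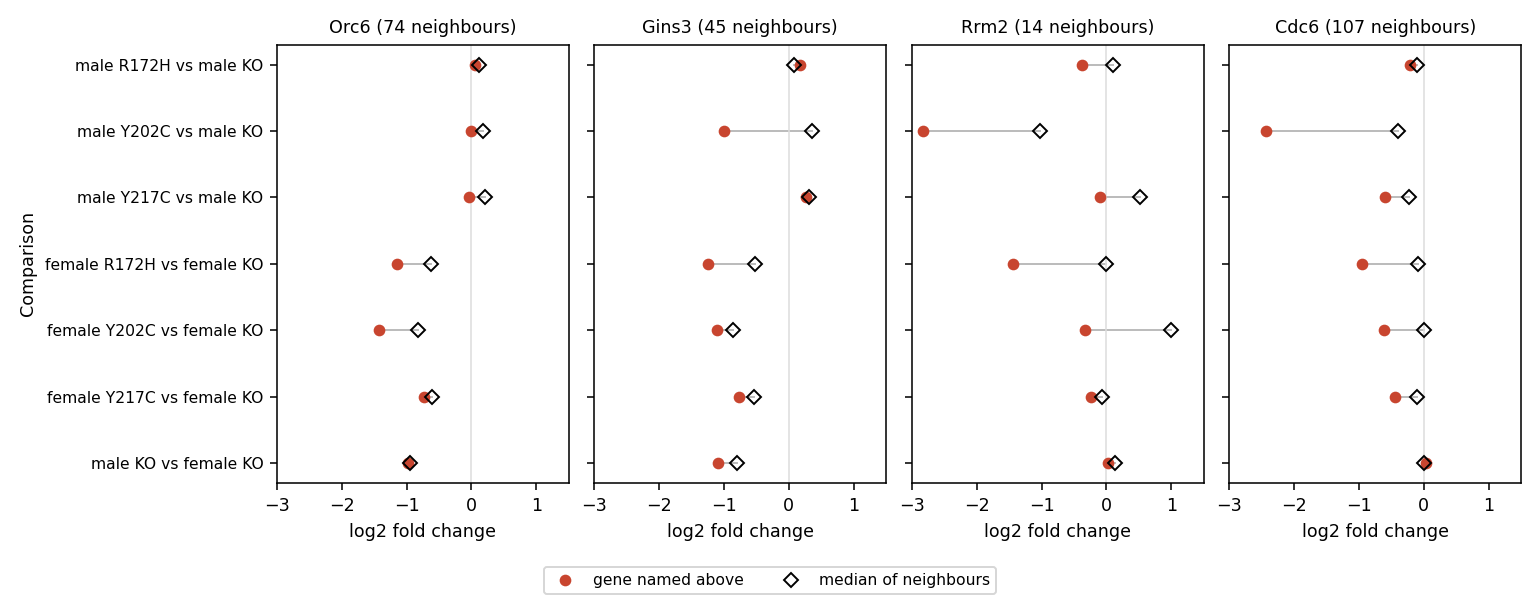
Log2 fold change (horizontal axes) of Orc6, Gins3, Rrm2 and Cdc6 (red dots) and the median of the genes within 2.5 Mb of each (open diamonds) in 7 comparisons (rows). The diamonds of Orc6 and Gins3 lie below 0 in the comparisons with female p53 KO, while those of Cdc6 lie between -0.40 and 0.01.

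Other genes of the replication and cell cycle program were read from lists apart from the 44. Of all genes, 35.4% were lower in male p53 Y202C, 35.3% in female p53 R172H and 34.3% in female p53 Y202C. Of 30 other fork and origin factors, 24 were lower in male p53 Y202C, 22 in female p53 R172H and 23 in female p53 Y202C. The nuclease Dna2 led the falls, at -3.11, -1.42 and -1.43. Pold4, the smallest subunit of polymerase delta, went the other way in the female lines, at 1.404 in p53 R172H and 1.30 in p53 Y202C. It was also higher in female p53 Y217C at 0.74, in male p53 Y217C at 0.81 and in male p53 R172H at 0.50. Of 10 chromatin assembly genes, 9 were lower in male p53 Y202C, 9 in female p53 R172H and 10 in female p53 Y202C, with the histone chaperone Asf1b at -1.47 and -1.74 in the female lines and Uhrf1 at -1.81 in the male one. Of 21 genes of the E2F and RB axis with cyclins E and A, 16, 15 and 17 were lower, with Mybl2 at -2.30, -1.43 and -1.20. Of 10 other deoxynucleotide enzymes, 6 were lower in each of the 3 lines, and 3, 2 and 3 were higher. Their summed level was 355 to 394 CPM in male p53 KO and 340 to 351 CPM in male p53 Y202C, and 359 to 373 CPM in female p53 KO, 374 to 386 CPM in p53 R172H and 350 to 364 CPM in p53 Y202C.

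Genes of G2 and mitosis were mostly lower, as the replication genes were, in male p53 Y202C, female p53 R172H and female p53 Y202C. Of 24, 23 were lower in male p53 Y202C with a median of -1.28, 23 in female p53 R172H with a median of -0.60 and 24 in female p53 Y202C with a median of -0.59. In male p53 Y217C, 14 of 24 were lower, where 35.6% of all genes were. Their median was -0.32 there, against -0.05 for the 44 replication genes. Female p53 Y217C had 8 higher and 1 lower, where 28.0% of all genes were higher and 28.7% lower. Of the 44 replication genes, 17 were lower in that line. The higher count was thus not far from the share over all genes. Male p53 R172H had 1 higher and 5 lower, where 20.2% of all genes were higher and 20.5% lower. This lower count was near the share over all genes.

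Marker lists of other cell types also differed between lines. The summed level of 8 fibroblast and meningeal genes was 21640 to 24440 CPM in male p53 Y202C against 44080 to 50470 CPM in male p53 KO. In females it was 57930 to 66880 CPM in p53 R172H and 52920 to 59500 CPM in p53 Y202C against 39310 to 41720 CPM in p53 KO, so it was lower in the first of these lines and higher in the others. The most abundant genes dominate this sum. Of the 8 genes, 4 were called lower and 2 higher in male p53 Y202C. The 10 astrocyte markers summed to 227 to 240 CPM in male p53 Y202C, 387 to 410 CPM in male p53 KO, 650 to 685 CPM in female p53 R172H and 391 to 416 CPM in female p53 KO. Single markers went against these sums. In female p53 R172H the mean of Slc1a3 was 281 CPM against 18.7 CPM in p53 KO, while Gja1 was 157 against 221 CPM and Glul 31.6 against 43.8 CPM. In male p53 Y202C, Aldh1l1 had a log2 fold change of 5.47 and Aqp4 of 3.99. Of 10 microglia markers 3 were in the table, with Aif1, Cx3cr1, Ptprc, Itgam, P2ry12, C1qa and Tyrobp absent from it, and of 9 oligodendrocyte, 7 neuron and 5 endothelial markers 4, 4 and 3 were. Csf1r, Tmem119 and Cd68, the 3 microglia markers present, had means of 0.291, 20.5 and 22.9 CPM in male p53 Y202C. In male p53 KO their means were 0.65, 73.0 and 3.53 CPM. The part of these differences in the replication genes was not tested.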

How the data were processed

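Poly(A) RNA of 24 libraries was sequenced and, per the labels and the study's methods, the authors aligned reads with STAR 2.5.1a and counted them per Ensembl gene with featureCounts of Subread. The deposited values were raw read counts of 14427 genes, without normalization. Strand use in counting is not given in the sources used here. Total counts ran from 52787288 to 136503809 per library, and no pair of replicates agreed within sampling noise. Groups came from the labels. GENCODE M21 (GRCm38) gave symbols to 14350 of the genes.

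All genes were fitted with edgeR 4.0.16 in R 4.3.3, using TMM normalization (factors 0.958 to 1.07), 1 mean per line over all 8 lines and the quasi-likelihood test, with Benjamini-Hochberg adjustment over all genes and a threshold of 0.05. Every gene exceeded 1 CPM in 2 or more libraries, so this filter left all in. The study's methods used limma voomWithQualityWeights, which was run as an alternative (limma 3.58.1), as was DESeq2 1.42.0. CPM was computed with TMM library sizes. The fit was also run on simulated counts in which few genes changed in 1 line, unlike these data, and no conclusion is drawn from that run. Statistics were given for the called members with the 3 largest falls and rises against p53 KO, the 3 largest interactions and the 2 largest differences each way between the p53 KO lines, and values per library for 1 or more members of each role, and Mcm2 and Cdt1 in male p53 Y202C and the Mcm2 interaction were added after their values were seen. The 44 members and all lists were chosen with earlier results of these data known. RefSeq promoter windows (GRCm38.p6) were searched for fixed words, and neighbors were the genes tested within 2.5 Mb. Same-numbered replicates of the lines compared had correlations from -0.172 to 0.245, so the numbers were not taken as pairs. Of the 44 genes, 8 had no promoter window. Near-identical pseudogenes make counts uncertain for Mcm7, Pcna, Cdc6 and Rfc5.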

Additional observations from a re-analysis of the deposited data

Results flagged for a closer look

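The change against p53 KO differed between the male and the female culture, by the interaction in edgeR's quasi-likelihood test, for 29 of the 44 members with p53 R172H, 34 with p53 Y202C and 19 with p53 Y217C, where 58.0%, 68.0% and 54.8% of all genes were called. The 3 largest for each mutation are given here as the male minus the female log2 fold change, with Mcm2 in addition. For p53 R172H these were Gins3 at 1.42, Orc6 at 1.199 and Pold1 at 1.07. For p53 Y202C they were Rrm2 at -2.51, Cdc6 at -1.82, Tk1 at -1.67 and Mcm2 at 0.91, which was chosen after its values were seen. For p53 Y217C they were Gins3 at 1.03, Gins2 at -0.84 and Orc6 at 0.70. Gins3 and Orc6 also differed between the p53 KO lines, which enter each of these values. The level of Trp53 differed between the male and female lines of p53 Y202C and of p53 Y217C as well, with interactions of 1.915 and -1.665. With 3 libraries per line, single libraries were not tested as outliers.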

How the results depend on the processing

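The total count of members called, both directions together, kept within 1.5 times of its value under every alternative for male p53 Y202C, female p53 R172H and the p53 Y202C interaction, among those that were run. The higher count of 5 in male p53 Y202C was 3 with a minimum of 5 CPM, 3 at an adjusted p of 0.01 and 1 when the size of the log2 fold change had to exceed 0.5. In male p53 R172H the total was 17, and 9 at an adjusted p of 0.01 and 1 with an absolute log2 fold change above 0.5, and it ran from 10 to 14 when 1 library was left out. The same fold threshold left 6 of 24 in male p53 Y217C, 22 of 37 in female p53 Y202C, 10 of 25 in female p53 Y217C, 18 of 29 p53 R172H interactions, 8 of 19 p53 Y217C interactions and 3 of 11 between the p53 KO lines. With limma voomWithQualityWeights the p53 Y217C interactions were 31 and the p53 KO difference 22, and with only the lines compared in the fit the latter was 19. Calls over all 14427 genes rose as well with limma voomWithQualityWeights. They went from 7913 to 9388 for the p53 Y217C interaction and from 4482 to 7186 between the p53 KO lines. With only the lines compared, 5781 of 13207 genes were called between the p53 KO lines. The cause was not tested. With the replicate number as a replicate block, the counts were 16, 42 and 22 in male p53 R172H, p53 Y202C and p53 Y217C, and 36, 37 and 24 in the female lines, within 1.5 times of those without it. Of 810 alternative values of the 50 named results, 774 kept direction and call, 36 lost the call and none changed sign.

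Depth did not limit most members, but Fen1 was measured at no more than 3.11 CPM. With 3 libraries from 1 culture per line, the spread covers replicates of a line and not other cultures.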
